A study of Mus musculus with 16 samples.

Results

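Alveolar macrophages (AM) of mice lacking Bhlhe40 were set against those of wild-type mice, on the 4 AM arrays of a series of 16 one-colour Affymetrix mouse gene arrays. The members were the arrays whose titles name naive AM. They comprised 2 arrays of AM from Bhlhe40-/- mice (Bhlhe40KO, here KO) and 2 of AM from Bhlhe40+/+ mice (Bhlhe40WT, here WT). All mice were male C57BL/6 and untreated, and the cells were sorted from lung digests. The knockout is constitutive, so every cell of the mouse lacks the gene, and the labels give no age and do not say whether a replicate was 1 mouse or a pool. The p-values therefore measure the spread between arrays of a group, pooled over all 16 arrays, most of which are not of AM. That spread may be technical, and with so few arrays the precision is limited. Large peritoneal macrophages (LPM) of untreated mice, with 3 Bhlhe40KO and 3 Bhlhe40WT arrays sorted from peritoneal lavage, served for comparison. Their arrays also entered the variance estimate. The other 6 arrays, of LPM from IL-4c-treated Bhlhe40KO, Bhlhe40WT and LysM-Cre+ Bhlhe40 fl/fl (Bhlhe40LysM) mice with 2 each, entered only through the shared variance estimate. Of 19938 genes with a probe set of a single symbol, 11634 passed a filter on dim signal and were tested. A level is an RMA log2 signal, where the array medians of the 4 AM arrays lay between 4.79 and 4.90. A difference is KO minus WT on that scale, so that 1 is 2-fold. A gene is called at an adjusted p under 0.05 from limma, with Benjamini-Hochberg adjustment over the genes tested.

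AM are the resident macrophages of the airspaces. They are set up by GM-CSF and TGF-beta, which act through the nuclear receptor PPAR-gamma, they clear surfactant lipid and inhaled particles, and they renew themselves locally with little input from blood monocytes. BHLHE40 is a basic helix-loop-helix repressor that binds E-box DNA as a dimer with itself or with its relative BHLHE41. It is known in the circadian clock, where it competes for E-boxes with the activators CLOCK and BMAL1, and in macrophages and lymphocytes, where it represses Il10. MHC class II genes, which present peptides to CD4 T cells, are switched on by the coactivator CIITA at promoters with conserved X and Y boxes.

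The E-box CACGTG, the site class that BHLHE40 recognises, is shown in the promoter windows of 4 chosen clock genes of the lists used here. They are shown because the clock genes carry the closest textbook link to BHLHE40. The 4 are not a count, and the windows of the other clock genes are not described. The windows are from RefSeq on GRCm38.p6 and cover 250 bases before and 50 after a listed start. They were searched on both strands, which for this palindrome are the same. A gene can have several listed starts, and the first window with the letters before its start is shown. Capitals mark the E-box.
Per1: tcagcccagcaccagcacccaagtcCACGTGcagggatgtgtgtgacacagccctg
Cry1: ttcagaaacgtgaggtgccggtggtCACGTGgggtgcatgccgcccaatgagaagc
Tef: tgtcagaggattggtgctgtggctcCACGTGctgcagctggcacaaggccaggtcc
Bhlhe41: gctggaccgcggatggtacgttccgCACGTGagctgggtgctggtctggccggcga
These stretches lie at chr11:69098758-69098813 on the plus strand for Per1, chr10:85185084-85185139 on the minus strand for Cry1, chr15:81802521-81802576 on the plus strand for Tef and chr6:145865543-145865598 on the minus strand for Bhlhe41. The Per1 stretch lies inside the span of the gene, which is listed from 69095108 to 69109965, so it precedes an internal start. Windows were listed for 9352 of the tested genes, and 1098 of these genes (11.7%) held CACGTG. None of the 1098 was called between KO and WT AM, where 8 genes with a window were called in all. The median difference was 0.07 for genes with the letters and 0.05 for the 8254 genes without. A match is a description of these letters and not of a bound site.

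Class II promoters are shown because class II genes were the largest group among the called falls. Capitals mark ATTGG, the core of the Y box read along the gene (the inverted CCAAT), which 42.3% of the 9352 genes held on 1 strand or the other.
H2-Aa: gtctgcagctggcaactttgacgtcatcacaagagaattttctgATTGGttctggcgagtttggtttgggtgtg
H2-Eb1: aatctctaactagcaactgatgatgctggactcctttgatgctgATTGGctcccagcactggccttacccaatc
The H2-Aa stretch is chr17:34287842-34287915 on the minus strand and the H2-Eb1 stretch chr17:34305764-34305837 on the plus strand, with the motif ending 43 and 54 bases before the gene's start. No window was found here for H2-Ab1. Neither of the H2-Aa and H2-Eb1 windows held CACGTG.

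The cells carried markers of AM in both genotypes. Over 18 measured AM markers the mean log2 signal was 10.53 and 10.48 on the KO arrays and 10.28 and 10.36 on the WT arrays, against 5.83 to 6.00 on the 6 naive LPM arrays. Of these markers 15 were higher on all 4 AM arrays than on all 6 LPM arrays, where 19.6% of all genes were so placed. Itgax, the CD11c integrin chain, had levels of 10.17 and 10.09 in KO AM and 9.94 and 10.22 in WT AM, against a mean of 3.27 in WT LPM. Itgam, the CD11b chain that resting AM lack, had 3.98 and 3.80 in KO AM and 4.02 and 3.81 in WT AM, all below the array median. The 12 LPM markers averaged 5.35 and 5.39 in KO AM and 5.41 and 5.24 in WT AM, against 10.9 to 11.2 in LPM, and the LPM factor Gata6 had 4.36 and 4.65 in KO AM and 5.0 and 4.22 in WT AM. Bright AM markers and dim LPM markers were thus found on all 4 AM arrays.

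Markers of other lung cells were mostly dim, and a few of them differed between replicates or genotypes. The 9 tested dendritic cell markers averaged 5.90 and 6.10 in KO AM and 6.11 and 6.01 in WT AM, and the defining dendritic cell genes Flt3, Zbtb46 and Xcr1 stayed below the filter, with levels under 4.37 on every AM array. The 11 interstitial macrophage markers averaged 4.98 and 4.98 in KO AM and 5.19 and 5.11 in WT AM, against 8.48 to 9.21 in LPM, so the KO arrays were lower. The 6 tested neutrophil markers, which include the called gene Csf3r, averaged 6.03 and 6.02 in KO AM and 5.72 and 5.79 in WT AM. This mean was carried by S100a9 and Csf3r, with differences of 1.41 and 1.28, while the other 4 markers had differences below 0 and the median was -0.13. Ly6g, which defines neutrophils, was between 2.42 and 2.70 and thus far below the array median. Epcam, an epithelial adhesion molecule, had 7.36 and 6.92 in KO AM and 8.12 and 7.55 in WT AM. The part of such cells in the results was not tested. Sftpc, the surfactant protein made by type II epithelial cells, had 6.22 and 6.22 in KO AM and 3.82 and 6.57 in WT AM, so WT replicate 1 alone was low. Scgb1a1, the club cell secretory protein, had 6.74 and 5.41 in KO AM and 4.86 and 6.36 in WT AM, with partly overlapping ranges. Jchain, the joining chain of secreted antibody, had 4.37 and 6.84 in KO AM and 4.30 and 5.2 in WT AM, so KO replicate 2 stood above the other 3 arrays. These genes were among the 5 with the largest difference between the arrays of a genotype. The others were Ccl7, Pcbd1 and Ccl2 in KO AM and Lyz1, Gadd45b, Lif and Zfp455 in WT AM.

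Replicates agreed more closely in KO than in WT. The KO arrays correlated at 0.992 across the 11634 genes and the WT arrays at 0.984 (Pearson, across genes, which are not independent replicates). The difference between arrays had an SD of 0.213 for the KO pair and 0.298 for the WT pair, and passed 2-fold for 13 genes between the KO arrays and for 50 genes between the WT arrays. WT replicate 2 correlated at 0.989 with each KO array, above its correlation with WT replicate 1. WT replicate 1 correlated at 0.984 and 0.985 with the KO arrays. The difference between the genotype means, which averages over arrays and so varies less than a difference between single arrays, had an SD of 0.197 and passed 2-fold for 19 genes. By these correlations WT replicate 1 was the AM array least like the others. With 2 WT arrays this cannot tell which of them is the more typical of WT. Results are given below with each array's value.

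**Figure D1:**
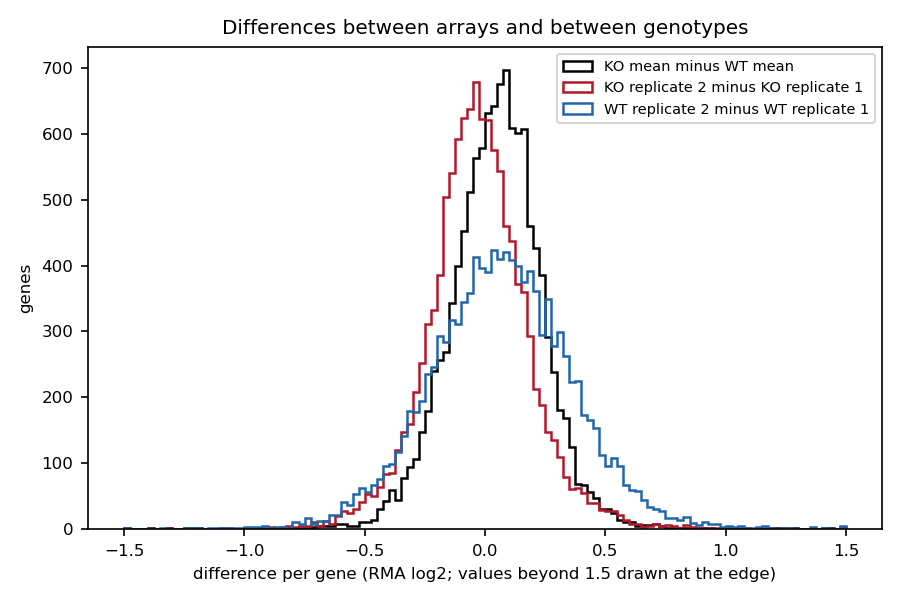
Histogram of differences per gene over the 11634 tested genes (RMA log2, horizontal axis; number of genes, vertical axis) between the KO and WT means (black), between the KO arrays (red) and between the WT arrays (blue). The WT pair has the widest spread (SD 0.298), the KO pair a narrower one (SD 0.213), and the genotype difference (SD 0.197) is centred slightly above 0, at a median of 0.05.

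Spread fell with the level in the KO pair and much less so in the WT pair. When genes were ranked by their mean AM level and split into 4 classes of equal size, the SD of the KO pair's difference was 0.265 in the lowest class and 0.150 in the highest. For the WT pair it was 0.288 in the lowest class and 0.270 in the highest. The median half-width of the 95% interval of KO minus WT was 0.39 in the lowest class and 0.33 in the highest. Called genes came from every class, with 2, 4, 3 and 5 from the lowest to the highest.

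Between the genotypes, 14 genes were called (0.12% of those tested), with 6 higher in KO (0.0516%) and 8 lower (0.0688%). At an unadjusted p under 0.05 the count was 620 (5.33%). The 95% interval of the difference, which is not adjusted for the number of genes, lay inside 2-fold in either direction for 11377 genes (97.8%) and inside 1.5-fold for 8018 (68.9%). Both KO arrays exceeded both WT arrays for 2789 genes (24.0%), and both lay below them for 1446 (12.4%). This split depended on the scaling. After a second quantile normalization the shares were 20.4% and 14.3%, and after centring each array on its median they were 28.6% and 8.25%. The median difference of all genes was 0.05, and it was 0.02 and 0.10 under these scalings.

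Bhlhe40, on chromosome 6 of GRCm38.p6 between 108660629 and 108666925, had levels of 7.53 and 7.75 in KO AM and 9.57 and 10.07 in WT AM. The groups did not overlap, and the difference of -2.17 ± 0.19 (SE, n = 2 arrays each) had an adjusted p of 6.1e-05 in limma. Signal in KO AM stayed above the array median, and the files do not say which exons the probe set reads. Bhlhe41, the relative that can dimerise with BHLHE40 (chromosome 6, GRCm38.p6), had 8.67 and 8.77 in KO AM and 8.25 and 8.73 in WT AM. The difference of 0.23 was not called and its 95% interval, -0.58 to 1.04, did not exclude a 2-fold rise. In LPM of WT mice Bhlhe41 lay between 3.84 and 4.73, below the array medians, whereas all 4 AM arrays were well above them.

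Beside Bhlhe40 the called falls in KO AM comprised the class II chains H2-Eb1, H2-Ab1 and H2-Aa, their chaperone Cd74 (the invariant chain), the transporter-like gene Mfsd6, the defensin-like gene Spag11b and Ereg, the EGF-receptor ligand epiregulin. H2-Ab1 had 9.49 and 9.43 in KO AM and 10.84 and 10.83 in WT AM. Each pair agreed within 0.1. Ereg had 4.91 and 4.64 in KO AM and 5.71 and 6.23 in WT AM. Its level was near the array median in KO AM and above it in WT AM. Mfsd6 had 4.35 and 4.47 in KO AM and 5.88 and 5.58 in WT AM, again with no overlap. Spag11b had 6.58 and 6.87 in KO AM and 8.21 and 7.69 in WT AM.

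The called rises comprised Hpgds, Cd93, Tnfsf18, Csf3r, Gpr141 and Osbpl3. Hpgds, the haematopoietic prostaglandin D synthase, had 7.0 and 7.08 in KO AM and 4.68 and 4.96 in WT AM, a 4.65-fold difference (2.22 ± 0.33 SE, adjusted p = 0.0067 in limma). Cd93, a C-type lectin-like surface receptor of myeloid and endothelial cells, had 7.16 and 7.2 in KO AM and 5.28 and 5.47 in WT AM. Csf3r, the receptor for G-CSF, had 7.46 and 7.90 in KO AM and 6.31 and 6.48 in WT AM. None of these groups overlapped, where over all genes both KO arrays exceeded both WT arrays for 24.0%. Tnfsf18, the ligand of the costimulatory receptor GITR, had 5.16 and 5.74 in KO AM and 4.12 and 3.92 in WT AM, so that it passed the array median in KO only. Gpr141, an orphan receptor, had 6.19 and 6.18 in KO AM and 5.05 and 4.84 in WT AM. Osbpl3, a lipid-binding protein related to the oxysterol-binding protein, had the smallest called difference, 0.83, with 6.82 and 6.72 in KO AM and 5.74 and 6.16 in WT AM, and it was not called when the 4 AM arrays were fitted alone (adjusted p = 0.445 in limma).

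**Figure D2:**
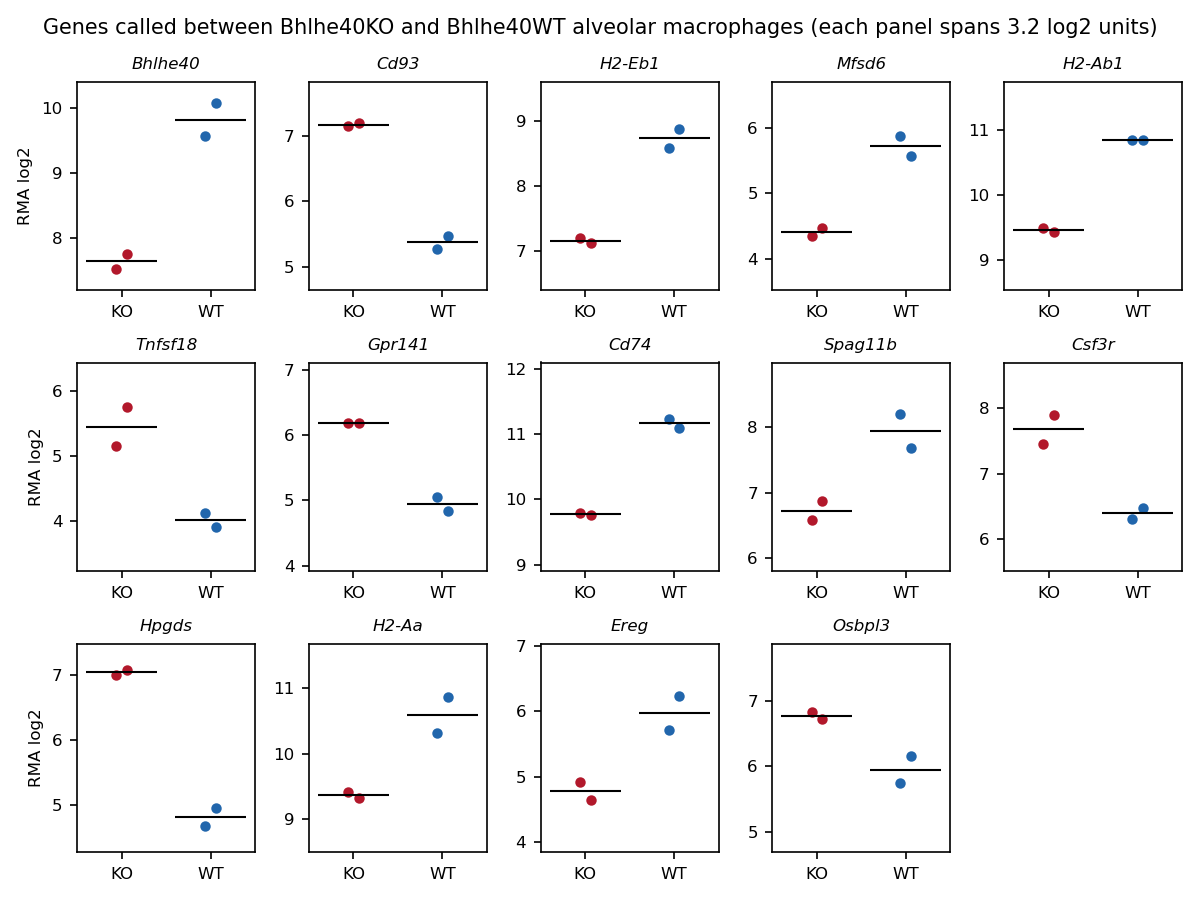
RMA log2 signal of the 14 called genes on each KO array (red) and WT array (blue), with group means as black bars; each panel spans the same log2 range. KO and WT points do not overlap in any panel, and replicates differ far less than the genotypes for genes such as H2-Ab1 and Cd93. The genes were picked by the test on these same arrays. Over all tested genes both KO arrays lay above both WT arrays for 24.0% and below them for 12.4%.

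Across 30 gene lists of macrophage functions, median differences were small outside the class II list, but some members that were not called differed more. Among them Marco and Hspa1a passed 2-fold, with differences of 1.30 and 1.24. The lists held 592 tested genes outside class II, of which 2 were called, Hpgds and Cd93 (0.338%, against 0.12% of all genes). For 546 of the 592 (92.2%) the 95% interval lay inside 2-fold and for 330 inside 1.5-fold. The 92.2% was below the 97.8% of all genes. As 0.12% of all genes were called, 0 calls in a list of this length does not set the list apart from other genes. When only the 4 AM arrays were fitted, the shares inside 2-fold were 95.9% for the listed genes and 98.8% for all genes. Median differences of the 29 lists other than the class II list ran from -0.08 for interferon-stimulated genes to 0.20 for unfolded protein response genes. On 23 of the 30 lists the mean over members was lowest on WT replicate 1, and on 9 it was highest on WT replicate 2. The mean over all tested genes was also lowest on WT replicate 1, at 6.49. It was 6.58 and 6.55 on the KO arrays and 6.56 on WT replicate 2. On 10 lists both KO arrays lay above both WT arrays, and on 2 lists both lay below. Without WT replicate 1, the list medians above 0 numbered 15, against 23 with it. What part this array has in the small positive medians beyond these counts was not tested.

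**Figure D3:**
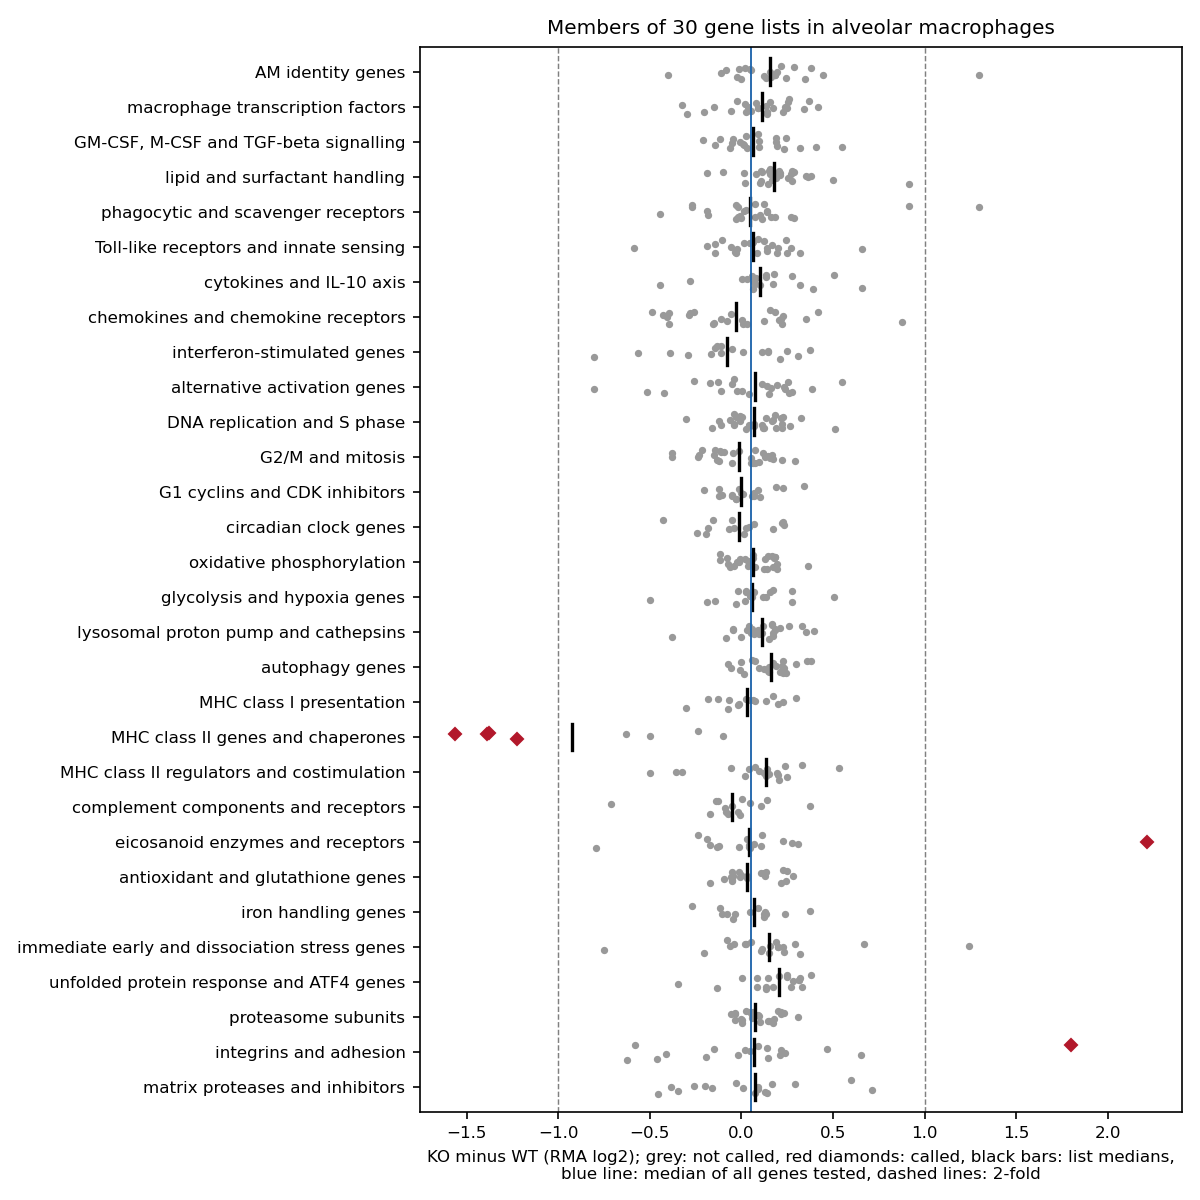
KO minus WT log2 difference of each tested member (points) of 30 gene lists (rows), with list medians (black bars), the median of all genes (blue line) and 2-fold either way (dashed lines). Called genes (red diamonds) occur in 3 lists, and apart from the class II list all medians lie between -0.08 and 0.20.

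Genes of AM identity showed no called difference. Of 23 tested, 0 were called (0.12% of all genes were) and 19 had intervals inside 2-fold (97.8% of all genes did). The median difference was 0.16, beside 0.05 for all genes. Without WT replicate 1 it was 0.06 (0.01 for all genes), and without WT replicate 2 it was 0.22 (0.09 for all genes). Both KO arrays exceeded both WT arrays for 11 of the genes (24.0% of all genes) and lay below them for 2 (12.4%). Marco, described below, had the largest difference, 1.30, with an interval of 0.51 to 2.09. All but 2 of the 23 were higher on every AM array than on every naive LPM array. Siglecf, a sialic acid-binding receptor characteristic of AM, had 9.13 and 9.15 in KO AM and 8.90 and 8.99 in WT AM, with an interval of -0.14 to 0.52. Car4, carbonic anhydrase 4, had 11.31 and 11.02 in KO AM and 10.91 and 10.95 in WT AM. Its interval of -0.62 to 1.10 just passed 2-fold. Chil3, a chitinase-like lectin abundant in AM, had 12.58 and 12.59 in KO AM and 12.79 and 12.60 in WT AM. Plet1, a surface protein of AM, had 12.43 and 12.40 in KO AM and 12.39 and 12.34 in WT AM. Fabp1, a fatty acid-binding protein, was the lowest by difference, -0.40, with 10.86 and 10.67 in KO AM and 11.26 and 11.08 in WT AM, and was not called.

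Transcription factors of macrophages gave no call either, with 0 of 26 called (0.12% of all genes were). Of their intervals 25 lay inside 2-fold, beside 97.8% for all genes. Pparg, which encodes PPAR-gamma, had 10.48 and 10.56 in KO AM and 10.30 and 10.22 in WT AM (difference 0.26, interval -0.12 to 0.64). Spi1, which encodes the lineage factor PU.1, had 9.73 and 9.86 in KO AM and 9.57 and 9.86 in WT AM. Cebpb, a C/EBP factor needed for AM, had 7.08 and 7.01 in KO AM and 7.09 and 7.11 in WT AM. All 4 arrays lay within 0.1 of each other. Klf2 and Klf4, Krüppel-like factors, differed by 0.02 and 0.25. Maf, a factor that restrains macrophage self-renewal, had 4.54 and 4.41 in KO AM and 4.74 and 4.86 in WT AM, near or below the array median in both. Bach2 lay below the filter, between 3.76 and 4.01. Mitf and Rxra had the largest positive differences named here, 0.42 and 0.37, and neither was called.

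Growth factor signalling genes had 22 of 22 intervals inside 2-fold, beside 97.8% for all genes. None was called (0.12% of all genes were), and the median was 0.06. The GM-CSF receptor chains gave 9.58 and 9.56 in KO AM and 9.44 and 9.65 in WT AM for Csf2ra. Csf2rb had 10.20 and 10.04 in KO AM and 9.67 and 10.20 in WT AM, with WT replicate 1 low. Csf1r, the M-CSF receptor, had 8.66 and 8.49 in KO AM and 8.40 and 8.55 in WT AM. Tgfbr2, the ligand-binding TGF-beta receptor, had 8.90 and 8.75 in KO AM and 8.17 and 8.66 in WT AM (interval -0.02 to 0.83), and the ligand Tgfb1 differed by 0.03. Cish, a feedback inhibitor induced by STAT5, had the largest difference of the group, 0.55, with 6.78 and 6.85 in KO AM and 6.32 and 6.21 in WT AM, and was not called.

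**Figure D4:**
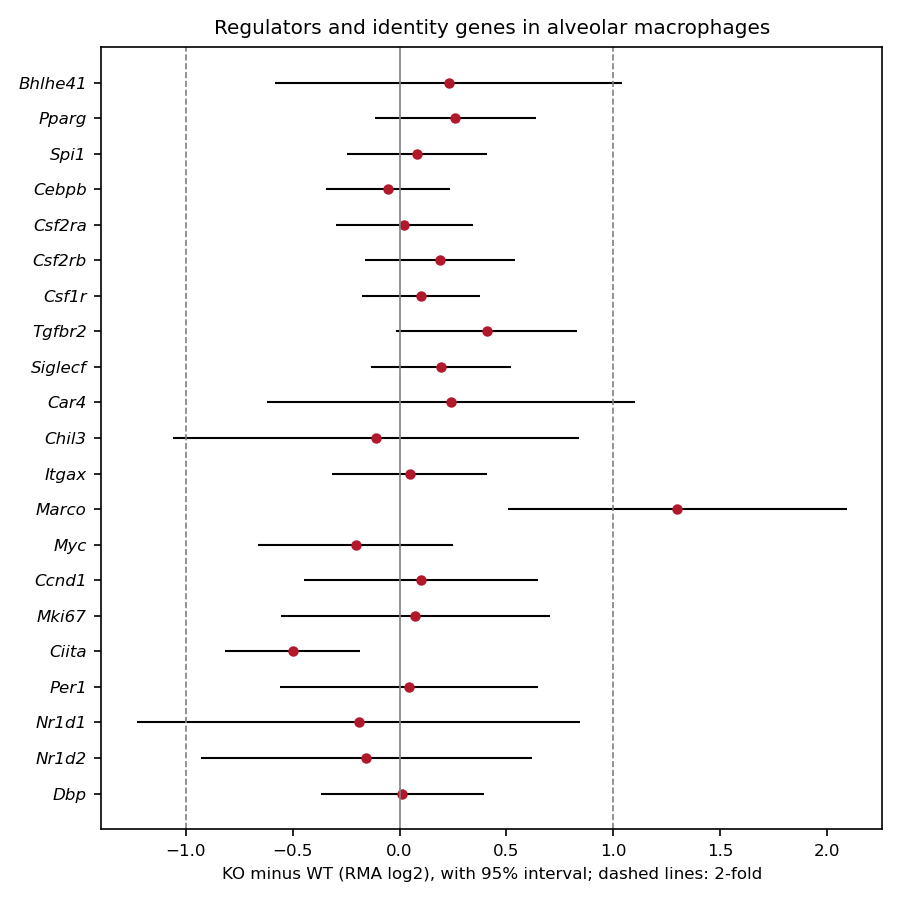
KO minus WT log2 difference (points) with its 95% interval from limma (lines) for regulators and identity genes of the named set; dashed lines mark 2-fold either way. Only Marco lies beyond 2-fold as an estimate, the intervals of Bhlhe41, Car4, Chil3 and Nr1d1 also pass a dashed line, and Ciita has an interval below 0.

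Lipid handling genes had mostly positive differences and no call (0.12% of all genes were called). Of 29 tested, 27 had differences above 0 (7149 of all 11634 genes did). The median was 0.18, and 25 intervals lay inside 2-fold (97.8% of all genes). Members on each array averaged 8.82 and 8.73 in KO AM and 8.48 and 8.66 in WT AM, so that WT replicate 2 lay just under the KO arrays. Without WT replicate 1 the median was 0.10 (0.01 for all genes), and without WT replicate 2 it was 0.29 (0.09 for all genes). Lpl, lipoprotein lipase, had 11.68 and 11.62 in KO AM and 11.50 and 11.77 in WT AM. Plin2, a lipid droplet coat protein, had 11.48 and 11.39 in KO AM and 11.06 and 11.65 in WT AM, with the KO arrays between the WT arrays. Scd1, a fatty acid desaturase, had 8.67 and 8.61 in KO AM and 8.18 and 8.10 in WT AM (difference 0.50, interval -0.05 to 1.05).

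Among 26 phagocytic and scavenger receptors 0 were called (0.12% of all genes) and 23 intervals lay inside 2-fold (97.8% of all genes). The median was 0.05, but 2 scavenger receptors stood apart from the rest. Marco, which binds bacteria and inhaled particles (chromosome 1, GRCm38.p6), had 9.78 and 9.71 in KO AM and 8.40 and 8.49 in WT AM. Each pair agreed within 0.1, and the difference of 1.30 had an interval of 0.51 to 2.09 and an adjusted p of 0.52 in limma over all 16 arrays. With the variance taken from the 4 AM arrays alone the interval was 0.98 to 1.62 and the adjusted p 0.011. It is thus a difference whose call depends on whether LPM arrays enter the variance. Msr1, the class A scavenger receptor, had 6.84 and 6.28 in KO AM and 5.39 and 5.90 in WT AM (difference 0.92, interval 0.46 to 1.38, not called). The Fc receptor chain gene Fcer1g differed by -0.01, with 11.84 and 11.79 in KO AM and 11.89 and 11.77 in WT AM.

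Innate sensing genes were also without a call. Of 27 tested Toll-like receptors and adaptors 0 were called (0.12% of all genes) and 26 had intervals inside 2-fold (97.8% of all genes). Tlr4, the lipopolysaccharide receptor, had 9.28 and 9.15 in KO AM and 9.4 and 9.0 in WT AM. Its partner Ly96 (MD-2) had 5.74 and 5.90 in KO AM and 6.60 and 6.22 in WT AM, and Tnfaip3, the A20 inhibitor of NF-kappaB, had 9.44 and 9.15 in KO AM and 8.90 and 8.37 in WT AM. Neither was called, at differences of -0.59 and 0.66.

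Cytokine genes gave 0 calls in 19 tested (0.12% of all genes were called), and 16 intervals lay inside 2-fold (97.8% of all genes). Il10, which BHLHE40 represses in other cells, did not pass the filter in AM, with levels of 3.76 to 4.39 over the 4 arrays, and neither did Il12a and Il12b. Tnf had 9.95 and 10.06 in KO AM and 10.17 and 10.73 in WT AM (difference -0.44, interval -1.08 to 0.20). Il18 had 10.44 and 10.55 in KO AM and 10.63 and 10.36 in WT AM, with full overlap. Osm, a cytokine of the IL-6 family, had 9.55 and 9.60 in KO AM and 8.42 and 9.42 in WT AM, and Il6 had 6.68 and 6.09 in KO AM and 5.97 and 5.79 in WT AM.

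Chemokine genes were loosely bounded. Of 26 tested 0 were called (0.12% of all genes). Only 18 intervals lay inside 2-fold (97.8% of all genes) and 3 inside 1.5-fold (68.9%). Ccl2, the monocyte attractant, had 9.26 and 10.45 in KO AM and 9.27 and 10.13 in WT AM, an interval of -1.35 to 1.66. Ccl7, its neighbour among the CCR2 ligands, had 7.50 and 8.76 in KO AM and 7.03 and 8.40 in WT AM. For both genes replicate 2 of each genotype was high, so the replicates differed more than the genotypes. Cxcl2 had 11.23 and 11.38 in KO AM and 11.50 and 11.09 in WT AM. Ccr1 and Cx3cr1, chemokine receptors, had differences of -0.43 and -0.40 without overlap between genotypes, and neither was called.

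Interferon-stimulated genes had the lowest median outside the class II list, -0.08, with 0 of 18 called (0.12% of all genes). All but 5 of them were dimmer on every AM array than on every naive LPM array (18.8% of all genes were). Ifit3, an antiviral protein, had 4.60 and 4.85 in KO AM and 5.82 and 5.24 in WT AM (difference -0.81, not called). Alternative activation genes gave 0 calls in 24, with 20 intervals inside 2-fold (97.8% of all genes). Retnla, a secreted product of IL-4-activated macrophages, had 3.96 and 4.68 in KO AM and 4.63 and 5.04 in WT AM, and Fn1, fibronectin, had 10.39 and 10.20 in KO AM and 10.61 and 10.83 in WT AM.

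Cell cycle genes showed no called difference in untreated AM, where 0.12% of all genes were called and 97.8% had intervals inside 2-fold. None of 31 DNA replication genes, 29 mitosis genes and 19 G1 cyclins and inhibitors was called, with medians of 0.07, -0.01 and -0.0045, and 31, 27 and 19 intervals lay inside 2-fold. Mki67, the proliferation antigen, had 7.36 and 7.47 in KO AM and 7.36 and 7.32 in WT AM. Ccnd1, cyclin D1, had 5.49 and 4.98 in KO AM and 5.39 and 4.88 in WT AM, and replicate 1 of each genotype was the higher one. Myc had 8.53 and 8.74 in KO AM and 8.68 and 9.0 in WT AM. The largest difference among these genes was that of Cdt1, a licensing factor of replication, with 6.97 and 6.62 in KO AM and 6.12 and 6.44 in WT AM, not called. Cdkn1a had no probe set of a single symbol and was not analysed here.

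Clock genes, with E-boxes as shown above for 4 of them, gave 0 calls in 16, a median of -0.01 and 14 intervals inside 2-fold. Over all genes 0.12% were called and 97.8% of intervals lay inside 2-fold. Per1 had 8.61 and 8.44 in KO AM and 8.30 and 8.67 in WT AM (interval -0.56 to 0.65). Cry1 had 6.28 and 6.83 in KO AM and 6.63 and 6.97 in WT AM, and Tef had 4.53 and 4.56 in KO AM and 4.74 and 4.29 in WT AM. All 3 overlapped between genotypes. Dbp, an output factor of the clock, had 5.27 and 5.39 in KO AM and 5.21 and 5.42 in WT AM. Nr1d1, a nuclear receptor of the clock's second loop, had 6.5 and 6.7 in KO AM and 6.49 and 7.10 in WT AM, and its interval of -1.23 to 0.85 did not exclude a 2-fold fall. The labels give no time of day.

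Among energy metabolism genes, those of oxidative phosphorylation were closely bounded. All 28 oxidative phosphorylation genes had intervals inside 2-fold (97.8% of all genes) and 27 of them inside 1.5-fold (68.9%). None was called (0.12% of all genes were), and the median was 0.06. Ndufa4, a respiratory chain subunit, had 11.02 and 11.04 in KO AM and 10.97 and 11.05 in WT AM. Of 20 glycolysis and hypoxia genes all lay inside 2-fold and 0 were called, but only 12 lay inside 1.5-fold (68.9% of all genes did). Hk1, hexokinase 1, was at 10.20 and 10.28 in KO AM and 11.08 and 10.39 in WT AM, so the WT arrays were both higher and differed more than the KO arrays did.

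Lysosome, autophagy and proteasome genes had 26 of 26, 24 of 24 and 25 of 25 intervals inside 2-fold, beside 97.8% for all genes. None of these genes was called (0.12% of all genes were). Their medians were 0.11, 0.16 and 0.08. Ctsl, a cathepsin, had 9.83 and 9.72 in KO AM and 9.23 and 9.62 in WT AM. Atp6v0e, a proton pump subunit, had 11.09 and 10.98 in KO AM and 11.02 and 10.98 in WT AM. For lysosomal genes the mean over members was 10.15 and 10.06 in KO AM and 9.88 and 10.11 in WT AM, with WT replicate 2 between the KO arrays. Unfolded protein response genes had the highest median, 0.20, with 17 of 19 differences above 0 and 0 called. Their mean was 7.97 and 7.89 in KO AM and 7.64 and 7.89 in WT AM, so that WT replicate 2 lay at the lower KO array. Without WT replicate 1 their median was 0.07 (0.01 for all genes), and without WT replicate 2 it was 0.32 (0.09 for all genes).

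**Figure D5:**
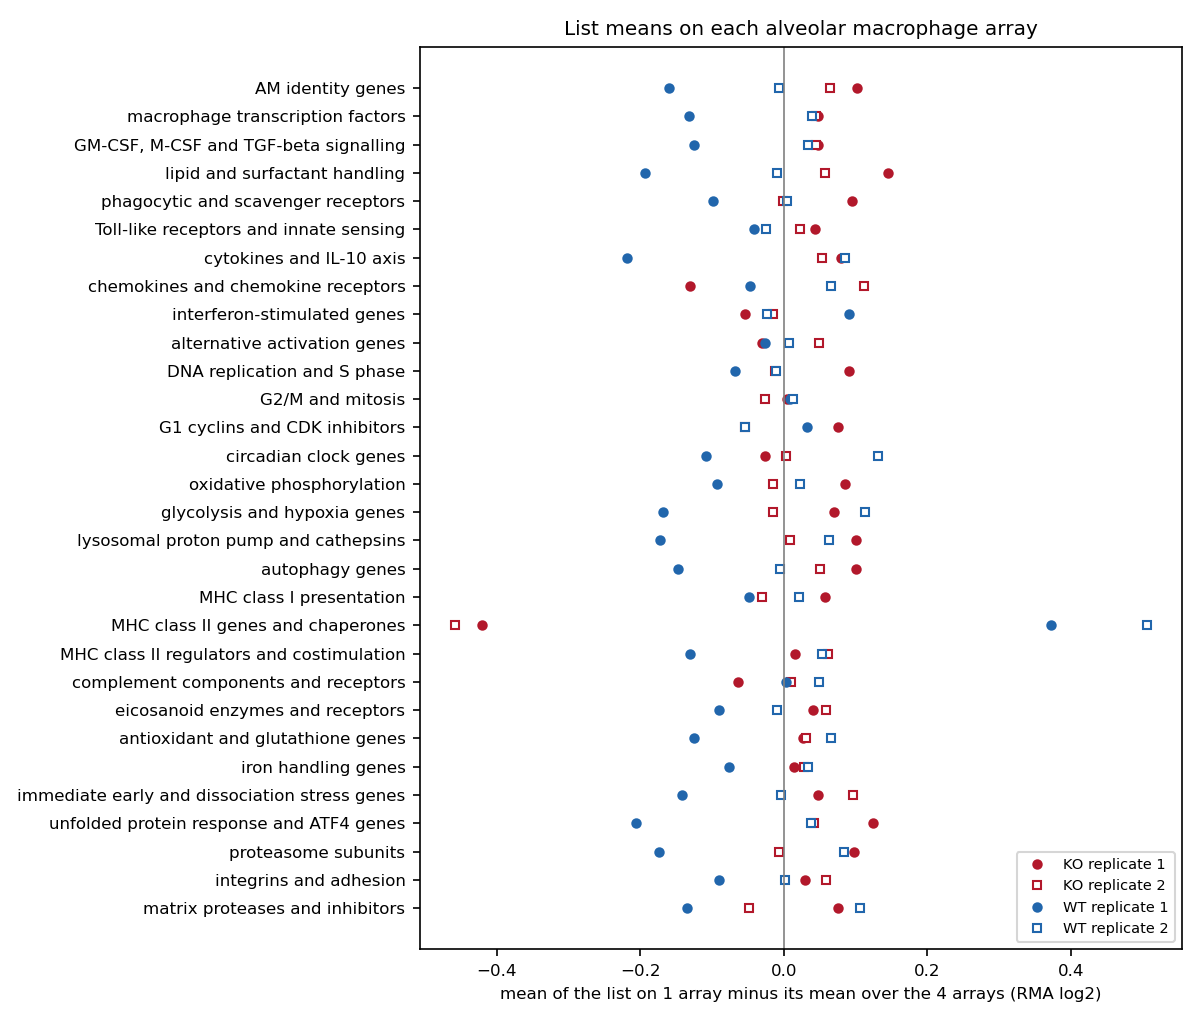
Mean of each gene list on each AM array, less its mean over the 4 arrays (RMA log2, horizontal axis), for KO replicates (red) and WT replicates (blue), replicate 1 filled and replicate 2 open. The class II list separates the genotypes widely, while on 23 of 30 lists WT replicate 1 is the lowest of the 4 arrays and WT replicate 2 lies among the KO arrays on many of them. Both KO arrays lie above both WT arrays on 10 lists and below them on 2.

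Genes of MHC class I presentation gave no call, where 0.12% of all genes were called. All 16 tested class I pathway genes lay inside 2-fold, 0 were called and the median was 0.03, against 4 called of 8 and a median of -0.93 for class II genes and chaperones. Psme1, a proteasome activator, had 9.63 and 9.52 in KO AM and 9.55 and 9.62 in WT AM. The class II chaperone H2-DMa had 9.70 and 9.60 in KO AM and 9.41 and 10.09 in WT AM, a difference of -0.10 that was not called. Ciita, the class II coactivator, had 4.61 and 4.57 in KO AM and 5.27 and 4.91 in WT AM (difference -0.50, interval -0.82 to -0.19, adjusted p = 0.561 in limma), where the KO arrays were below the array median and the WT arrays above it. Nfyb and Rfxank, which encode parts of the factors that bind the Y and X boxes, differed by 0.02 and 0.04. The costimulator Cd86 had 7.01 and 7.25 in KO AM and 6.02 and 7.18 in WT AM, with WT replicate 1 low. H2-K1 and H2-D1 had no probe set of a single symbol and were not analysed here.

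Of 15 complement genes 0 were called (0.12% of all genes) and 13 lay inside 2-fold (97.8% of all genes). The C1q genes, which are bright in LPM, were dim in AM. C1qb had 4.25 and 3.82 in KO AM and 4.77 and 4.72 in WT AM, a difference of -0.71 that was not called (adjusted p = 0.138 in limma), and C1qa and C1qc differed by -0.09 and -0.14. Eicosanoid genes other than Hpgds gave no call in 17 tested. Alox5, which starts leukotriene synthesis, had 9.62 and 9.60 in KO AM and 9.52 and 9.74 in WT AM. Cysltr1, a leukotriene receptor, had 4.78 and 4.94 in KO AM and 5.80 and 5.51 in WT AM, a difference of -0.79 without overlap that was not called.

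Antioxidant and iron genes were all inside 2-fold, 21 of 21 and 14 of 14 (97.8% of all genes), with 0 called (0.12% of all genes). Nfe2l2, which encodes the antioxidant regulator NRF2, had 10.61 and 10.63 in KO AM and 10.54 and 10.72 in WT AM, and Ftl1, ferritin light chain, had 12.26 and 12.30 in KO AM and 12.31 and 12.32 in WT AM. Immediate early and dissociation stress genes, which tissue digestion can induce, gave 0 calls in 21 and a median of 0.15. Hspa1a, a heat shock protein, had 7.69 and 7.80 in KO AM and 6.90 and 6.11 in WT AM (difference 1.24, interval 0.42 to 2.07, not called). Ier3 differed by 0.67 (interval 0.35 to 0.99) and Fosl1 by -0.75 (interval -1.23 to -0.27), and neither was called. Atf3, Nr4a1 and Jund differed by 0.02, 0.15 and 0.02. Adhesion genes gave 1 call, Cd93, in 18, and matrix proteases and inhibitors 0 in 17. Mmp12, the macrophage elastase, had the widest interval named here, -1.81 to 1.75, with 6.24 and 5.38 in KO AM and 5.82 and 5.86 in WT AM.

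Just inside the threshold stood Osbpl3 (adjusted p = 0.0397), Ereg (0.0183) and H2-Aa (0.0153). The genes nearest outside it, in limma, were Acot1, a long-chain acyl-CoA thioesterase (-0.81, adjusted p = 0.0737), the junction protein gene Cgnl1 (-0.64, 0.0903) and S100a9, a calcium-binding alarmin of neutrophils (1.41, 0.0916). S100a9 had 5.46 and 5.38 in KO AM and 3.89 and 4.14 in WT AM. Its adjusted p was 0.011 when only the 4 AM arrays were fitted. Its partner S100a8 had 7.62 and 7.64 in KO AM and 7.88 and 7.77 in WT AM, and the defining neutrophil gene Ly6g was below the filter. F10, coagulation factor X, had 10.30 and 10.21 in KO AM and 9.28 and 9.81 in WT AM (0.71), and Anpep, an aminopeptidase, had a difference of 0.95. Neither was called.

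The KO effect in AM was set against that in naive LPM by an interaction term, the AM difference minus the LPM difference. It was called for 29 genes (0.249%). In LPM alone 219 genes (1.88%) were called between KO and WT, from 3 arrays each. Cd93 differed by 1.80 between KO and WT AM and by -0.12 between KO and WT LPM, an interaction of 1.93 (adjusted p = 7.0e-04 in limma). Csf3r went in opposite directions, 1.28 in AM and -0.85 in LPM (interaction 2.13, adjusted p = 7.0e-04). H2-Eb1 differed by -1.57 in AM and by 0.11 in LPM (interaction -1.67). Bhlhe40 itself differed by -2.17 in AM and -1.89 in LPM, and this interaction of -0.29 was not called (adjusted p = 0.634). Stab1, the scavenger receptor stabilin-1, differed by -0.44 in AM, where it was below the array median, and by 3.31 in LPM, an interaction of -3.76. The count of 29 moved between 9 and 57 when single naive arrays were left out.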

How the data were processed

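Total RNA of sorted cells was hybridised to arrays. Per the submitters' processing notes, the log2 values that the authors deposited for 30177 probe sets come from RMA. This makes the distributions of the arrays alike, which hides any change in RNA content per cell, and in bulk samples fewer cells of a type and less RNA per cell cannot be told apart. Which RMA version was used is not given in these sources.

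Of the probe sets 21789 carried 1 symbol; 1621 with several and 6767 with none were not used. A gene is its brightest probe set, tested if above the array median on at least 2 arrays. Group means were fitted over all 16 arrays in limma 3.58.1 (R 4.3.3; 9 residual and 6.61 prior degrees of freedom), and the fit was tested on simulated data. Members and lists were chosen with earlier results of these data known. Named genes are the called genes, the 10 nearest the threshold, a fixed set of regulators, the 3 largest and 3 smallest differences of each list and the 5 largest replicate differences; not all are printed. Alternatives were other scalings, filters, probe set means, variance settings, subsets and left-out arrays. Figures were drawn with matplotlib 3.10.9.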

Additional observations from a re-analysis of the deposited data

Results flagged for a closer look

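Among the genes named by the rule, 9 had a KO effect in AM that differed from that in naive LPM by the interaction term of limma (adjusted p under 0.05). Differences of effects were 1.93 for Cd93, 2.13 for Csf3r, 1.13 for Gpr141, 1.31 for Tnfsf18 and 1.01 for Gtdc1, a glycosyltransferase-like gene, with the AM effect above the LPM effect. They were -1.67 for H2-Eb1, -1.18 for H2-Ab1, -1.43 for Spag11b and -3.76 for Stab1, with the AM effect below the LPM effect. Groups of 2 and 3 arrays are too small for a check of single outlying arrays.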

How the results depend on the processing

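Variance settings do not change a difference. KO and WT arrays of the 14 called genes did not overlap, so leaving out 1 array cannot turn a sign. Under every alternative listed here all 14 called genes kept their sign, which was thus mostly fixed beforehand. The count was 13 after a second quantile normalization, 15 after centring, 14 without the dim filter, with the olfactory receptor threshold or with probe set means, 17 with an intensity trend and robust variance (C1qb, Cgnl1, F10 and Ifitm3 gained), 10 with the 4 AM arrays alone (8 of the 14, plus Marco and S100a9) and 15 with array weights. Leaving out each array gave 8 to 19. Without WT replicate 1, 10 were called, 9 of them among the 14 (Cd74, Csf3r, Hpgds, Osbpl3 and Spag11b were lost), without WT replicate 2, 19, without KO replicate 1, 9, and without KO replicate 2, 8. A fit on the 10 naive arrays, chosen after seeing the data, called 15. Genes with intervals inside 2-fold numbered 19642 of 19938 without the dim filter and 10651 to 11378 when single arrays were left out. The interaction count was 45 with probe set means, 62 with the 10 naive arrays alone, 61 with array weights and 9 to 57 when single arrays were left out. Replicate numbers are shared by KO and WT, and the deviations of same-numbered AM arrays correlated at -0.07 across genes. With 2 arrays a group this single correlation cannot settle whether the numbers pair the samples, and the labels do not say. With the replicate block 11 genes were called, and 18 in the interaction. The cause of these shifts was not tested. With 2 arrays a group, differences under 2-fold often could not be called.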
